A study of Mus musculus with 8 samples.

Results

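Evx1, its antisense transcript Evx1as and 5 genes that flank them on mouse chromosome 6 were followed through RNA-seq libraries of differentiating embryonic stem cells. The 7 genes were picked by symbol from the deposited expression table, which holds 38610 symbols, and Evx1as is listed there as 5730457N03Rik. The other members are Skap2 on the side of the Hoxa cluster and Hibadh, Tax1bp1, Jazf1 and Creb5 on the opposite side. The cells, the CJ9 line of mouse embryonic stem cells (strain 129S4/SvJae), were collected on day 4 after removal of leukemia inhibitory factor (LIF), the cytokine that keeps them undifferentiated. All groups shared this line, this strain and the growth without LIF. Wild-type (WT) cells gave 2 libraries, Evx1as knockout (KO) cells gave 3, and a further 3 libraries are labelled EVX1 KO, and the series title gives CRISPR as the method of knockout. The sources used here give neither the position of each edit nor whether a group's libraries came from 1 clone.

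Evx1 belongs to the even-skipped family of homeobox genes, which encode transcription factors. In the mouse embryo it is expressed in the primitive streak, the region where mesoderm and endoderm arise, and embryonic stem cells that leave the pluripotent state can pass through a streak-like phase in culture. Many developmental transcription factor genes have a long noncoding RNA (lncRNA) that starts near their own start site and runs on the opposite strand. Deleting such a locus can act through the RNA, through its transcription or through the DNA that is removed, and expression values alone do not separate these.

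In the GENCODE annotation of GRCm38, Evx1 lies on the forward strand of chromosome 6 from 52313498 to 52318378 and has 3 exons with 2877 exonic bases. Evx1as lies on the reverse strand from 52308389 to 52314832 and has 4 exons with 2916 exonic bases. It starts inside the first intron of Evx1, 1334 bases past the Evx1 start site and 561 bases past the end of Evx1 exon 1, and runs back across that start site. Its exon 2 covers the Evx1 start site. The gene spans overlap by 1335 bases, while the exons overlap by 73 bases (52313498 to 52313570), or 2.54% of the exonic length of Evx1 and 2.50% of that of Evx1as. Reads from those 73 bases could be given to either gene, since the strand setting of the authors' counting is not given.

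**Figure D1:**
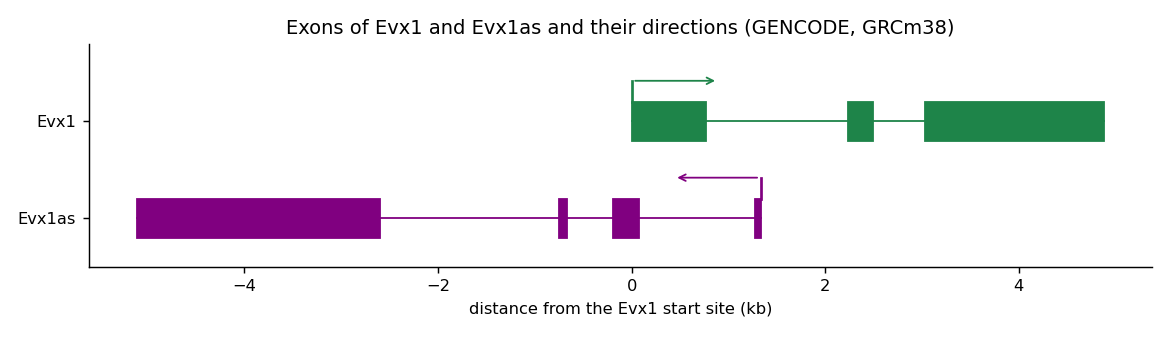
Exons (boxes) and introns (lines) of Evx1 and Evx1as along the distance from the Evx1 start site in kb, from GENCODE on GRCm38, with arrows for the direction of transcription. Evx1as starts 1334 bases downstream of the Evx1 start site and crosses it in the opposite direction, with 73 bases of exonic overlap.

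The 250 bases before each start site are shown because Evx1 and Evx1as fell together in the Evx1as KO libraries. The sequences are RefSeq promoters of GRCm38.p6, printed 5′ to 3′ on the strand of the gene, and the capitals mark a TAATTA match, the core letters bound by many homeodomain proteins. The Evx1 window is chr6:52313248-52313497 on the forward strand, and the Evx1as window is chr6:52314833-52315082 on the reverse strand.
Evx1: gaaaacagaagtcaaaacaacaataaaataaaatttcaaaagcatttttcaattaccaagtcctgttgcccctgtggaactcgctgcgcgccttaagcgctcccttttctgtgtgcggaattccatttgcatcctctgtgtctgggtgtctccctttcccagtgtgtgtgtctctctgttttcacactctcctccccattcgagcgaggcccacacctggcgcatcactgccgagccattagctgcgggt
Evx1as: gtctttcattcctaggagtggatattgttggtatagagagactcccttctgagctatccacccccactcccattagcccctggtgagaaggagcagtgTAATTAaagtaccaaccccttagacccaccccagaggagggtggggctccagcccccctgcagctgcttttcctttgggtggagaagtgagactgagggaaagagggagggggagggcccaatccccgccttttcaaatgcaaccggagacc
The GC content was 49.6% before Evx1 and 55.6% before Evx1as. TCACACC, a T-box half-site, CTTTGAT, a TCF/LEF site, and the palindrome TAATTA were searched on both strands. The only match in the windows of all 7 members was TAATTA, 152 bases before the Evx1as start site. Among 32851 RefSeq promoter windows of the same length, 4.84% held TAATTA, 3.33% held TCACACC and 3.21% held CTTTGAT.

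Levels are given in FPKM, fragments scaled to transcript length and library size, which allows levels of different genes to be set side by side. Library depth ranged from 0.863 to 1.19 relative to WT replicate 1, and between 12244 and 12442 genes reached 1 FPKM in each. Differences were tested with limma on log2(FPKM + 1) in 1 fit over all 8 libraries and 13188 genes, two-sided and with Benjamini-Hochberg adjustment, and an adjusted p under 0.05 was called a change. Log2 fold changes (± standard error) are on that scale, which understates changes of low genes. The labels do not say whether replicates were separate cultures, so p-values measure only the spread between these libraries, which may be technical. Summed FPKM of 6 pluripotency markers ranged from 455 to 511 in WT, from 689 to 775 in Evx1as KO and from 586 to 590 in libraries labelled EVX1 KO, and all 6 reached 1 FPKM. Most of this sum was Pou5f1, with means of 318, 423 and 337 FPKM in the same order and overlap between WT and EVX1 KO. Mean Nanog (37.1, 106 and 98.5 FPKM), Lin28a (96.0, 128 and 122 FPKM) and Sox2 (15.2, 50.4 and 17.7 FPKM) were also lowest in WT. Sox2 overlapped between WT and EVX1 KO. Mean Zfp42 (14.9, 10.7 and 11.7 FPKM) and Esrrb (2.05, 1.58 and 0.690 FPKM) were highest in WT, with overlap between WT and Evx1as KO. Zfp42 also overlapped between WT and EVX1 KO. Summed FPKM of 5 primitive streak and mesoderm markers, none of them below 1 FPKM throughout, ranged from 308 to 350, from 39.6 to 134 and from 301 to 332 in the same order. The 4 endoderm markers summed to 14.6 to 29.5, 1.21 to 6.97 and 44.8 to 69.5 FPKM, and the 4 trophoblast markers to 73.5 to 102, 14.7 to 50.1 and 47.9 to 65.4 FPKM, with Elf5 below 1 FPKM in all 8 libraries. Cxcr4 was the largest endoderm marker in WT and EVX1 KO (means of 14.0, 1.12 and 29.8 FPKM in the same order). Mean Foxa2 (1.38, 1.64 and 10.7 FPKM) was not lower in Evx1as KO than in WT, where the other endoderm means were. Most of the trophoblast sum was Krt7 (74.9, 32.0 and 44.7 FPKM), and Cdx2 is also among the streak regulators below. Mean Gcm1 (0.785, 0.948 and 0.667 FPKM) was highest in Evx1as KO, with overlap between all groups. The 3 neuroectoderm markers summed to 62.6 to 79.0, 60.2 to 82.8 and 26.3 to 62.8 FPKM, nearly all of it Nes, with Pax6 below 1, and the 7 fibroblast markers to 18.4 to 31.7, 11.8 to 20.9 and 18.5 to 24.0 FPKM with Lum and Postn below 1. Mean Thy1 (4.59, 6.49 and 3.15 FPKM) was higher in Evx1as KO than in WT, with overlap, while the other fibroblast means were lower. Sox1 was at 0.336 and 0.0284 FPKM in WT, at 3.00, 2.06 and 3.41 FPKM in Evx1as KO and at or under 0.0679 FPKM in libraries labelled EVX1 KO, and Pax6 was also above WT in each Evx1as KO library (0.441, 0.476 and 0.917 against 0.163 and 0.0917 FPKM). The part of these marker differences in the results below was not tested. In such bulk samples, fewer cells of a type and less RNA per cell cannot be told apart.

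Evx1as, the lncRNA targeted in the Evx1as KO cells, was close to the detection limit in those cells and overlapped WT in the libraries labelled EVX1 KO. It stood at 5.36 and 6.75 FPKM in the WT libraries, at 0.0549, 0.104 and 0.0485 FPKM in the Evx1as KO libraries, and at 5.01, 8.81 and 7.39 FPKM in those labelled EVX1 KO. The 3 Evx1as KO libraries lay far below the other 5, which overlapped between WT and EVX1 KO. The FPKM values of this gene were whole multiples of a step in each library, to within 0.05 fragments or 0.05%, and 1 step was read as 1 fragment. On that reading the WT libraries held 113 and 169 fragments, the Evx1as KO libraries 1, 2 and 1, and the libraries labelled EVX1 KO 107, 184 and 163. Scaled for depth, the 4 fragments of Evx1as KO amounted to 1.13% of the WT level, with an exact 95% interval of 0.305% to 2.92% that covers counting error only. The log2 fold change was −2.72 ± 0.21 in Evx1as KO against WT (limma, adjusted p = 3.25e-04) and 2.89 ± 0.18 in EVX1 KO against Evx1as KO (adjusted p = 1.27e-04). Between EVX1 KO and WT it was 0.17 ± 0.21, with a 95% interval of −0.29 to 0.64 (limma, adjusted p = 0.667).

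Evx1 fell with its antisense partner in the Evx1as KO libraries, while a larger share of its transcript was left when these libraries were pooled. It stood at 22.0 and 31.2 FPKM in the WT libraries, at 2.45, 3.84 and 0.541 FPKM in the Evx1as KO libraries, and at 26.3, 20.8 and 31.7 FPKM in those labelled EVX1 KO. The highest Evx1as KO value lay well under the lowest of the other libraries, and the values labelled EVX1 KO lay on both sides of those of WT. By the same step reading these were 457 and 769 fragments, then 44, 73 and 11, then 555, 429 and 690. The depth-scaled level in Evx1as KO was 8.29% of that in WT (95% interval 6.86% to 9.95%, counting error only), a 12.1-fold difference. For Evx1as this share was 1.13% (95% interval 0.305% to 2.92%, counting error only). The Evx1 interval leaves out the spread between the Evx1as KO libraries, where replicate 3 held 11 fragments and replicate 2 held 73. Fragment numbers of Evx1 and Evx1as are not compared library by library, since Evx1 also held more than Evx1as in WT. The log2 fold change was −3.20 ± 0.41 in Evx1as KO against WT (limma, adjusted p = 0.00180) and 3.19 ± 0.37 in EVX1 KO against Evx1as KO (adjusted p = 8.67e-04).

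The Evx1 transcript of the libraries labelled EVX1 KO was near its WT level, at 98.0% by depth-scaled fragments (95% interval 91.0% to 106%, counting error only). The log2 fold change was −0.01 ± 0.41 with a 95% interval of −0.94 to 0.91 (limma, adjusted p = 0.988), so that a change of nearly 1 log2 unit in either direction lay within the interval. The transcript level therefore gives no check of that label, since an edit that disrupts a protein can leave its mRNA, and the protein was not measured.

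**Figure D2:**
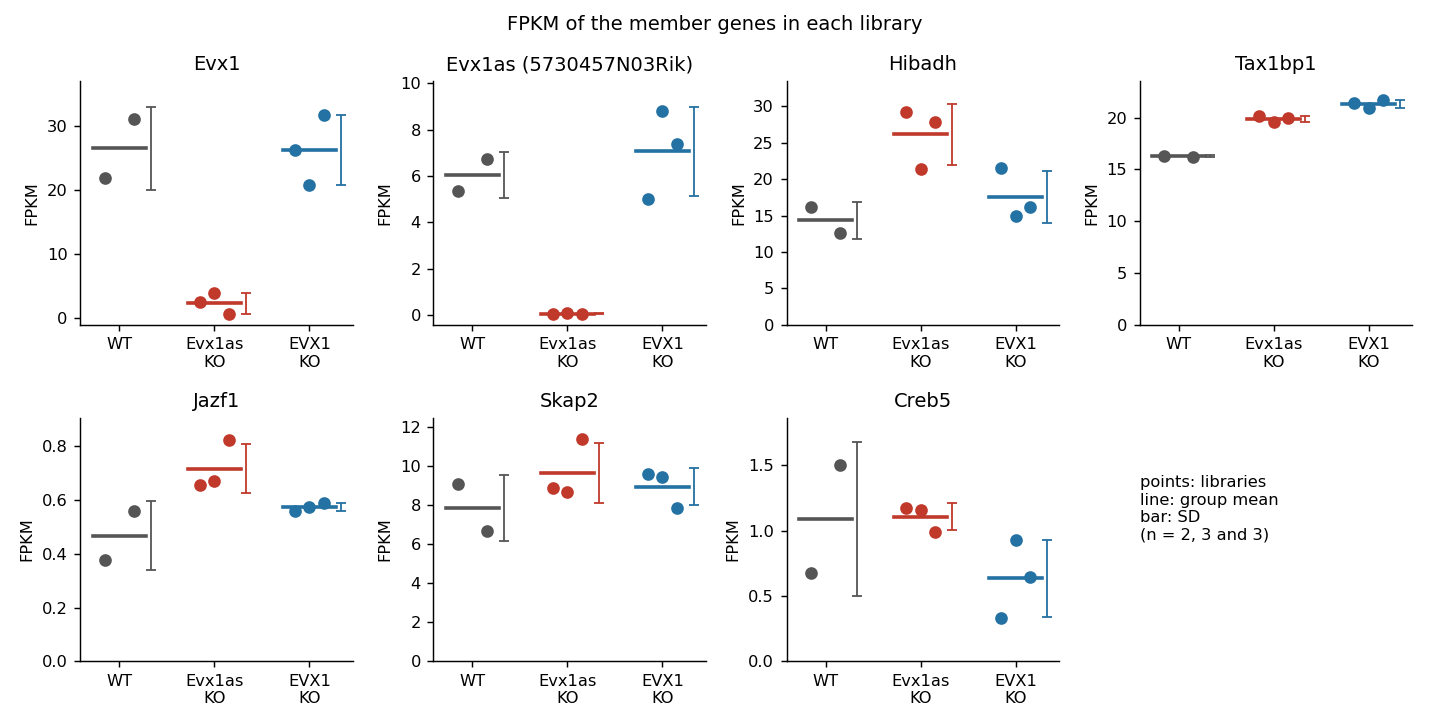
FPKM of the 7 members in each library (points), with the group mean (line) and the SD (bar) for WT (n = 2), Evx1as KO (n = 3) and EVX1 KO (n = 3). Evx1 and Evx1as are low in the 3 Evx1as KO libraries, and the WT values of Hibadh and Tax1bp1 lie under those of Evx1as KO.

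The ratio of Evx1 to Evx1as FPKM was 4.10 and 4.62 in the WT libraries and 5.26, 2.37 and 4.29 in those labelled EVX1 KO, so the groups overlapped. The mean log2 ratio differed by −0.21 between EVX1 KO and WT (exact permutation test, two-sided, p = 1, where 0.2 is the smallest p that 3 against 2 allows). Without EVX1 KO replicate 2 the difference was 0.13. In the Evx1as KO libraries the ratio was 44.6, 37.0 and 11.2, but its denominator rests on 1 or 2 fragments and no test was made. Within Evx1as KO, replicate 2 held the highest Evx1 value and replicate 3 the lowest, while the 1 or 2 fragments of Evx1as give no order. Replicate 2 also held the highest value of 15 of the 20 tested streak regulators described further on (75%), against 33.9% of all genes tested.

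**Figure D3:**
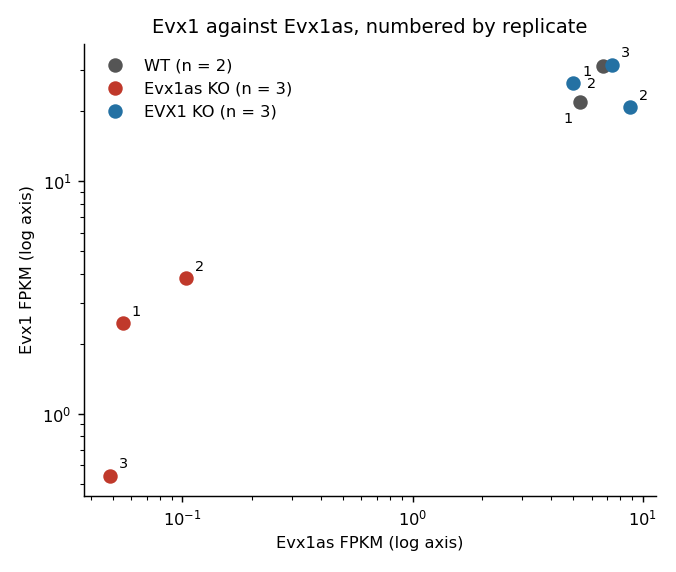
Evx1 FPKM against Evx1as FPKM in each library, both on log axes, with points numbered by replicate. The WT and EVX1 KO libraries lie together between 5.01 and 8.81 FPKM of Evx1as, and the 3 Evx1as KO libraries lie apart, with Evx1 between 0.541 and 3.84 FPKM.

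Of the 7 members, 6 passed the filter of 1 FPKM in at least 2 libraries. In Evx1as KO against WT, 4 of these 6 were called, with Evx1 and Evx1as lower and Hibadh and Tax1bp1 higher, against 24.5% of all genes tested (13.0% higher and 11.4% lower). In EVX1 KO against WT, limma called 0 of 6, against 1.24% of all genes called (0.690% higher and 0.554% lower). Only Tax1bp1 of the 6 had an unadjusted p under 0.05, and the share of all genes at that threshold was not counted. In EVX1 KO against Evx1as KO, 3 of 6 were called, with Evx1 and Evx1as higher and Hibadh lower, against 22.0% of all genes (10.7% higher and 11.3% lower). The first and the last comparison share the Evx1as KO libraries, and both comparisons against WT share the WT libraries. Evx1as was the target of the Evx1as KO, so its calls follow from the design. Of the 4 tested flanking members alone, 2 were higher in Evx1as KO than in WT.

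Hibadh, which encodes the mitochondrial 3-hydroxyisobutyrate dehydrogenase of valine breakdown, is the nearest tested gene on the far side of Evx1, 228 kb away in the deposited table. It stood at 16.2 and 12.6 FPKM in WT, at 29.3, 21.4 and 27.8 FPKM in Evx1as KO, and at 21.6, 14.9 and 16.1 FPKM in the libraries labelled EVX1 KO. All Evx1as KO values were above WT, while replicate 1 labelled EVX1 KO reached above the lowest of them. Hibadh was higher in Evx1as KO than in WT by 0.82 ± 0.19 log2 units (limma, adjusted p = 0.0147), or 1.82-fold by mean FPKM, the opposite direction to Evx1. This call was lost without WT replicate 2 (adjusted p = 0.112) or without Evx1as KO replicate 3 (adjusted p = 0.0515). EVX1 KO was lower than Evx1as KO by a log2 fold change of −0.55 ± 0.17 (limma, adjusted p = 0.0447), a call that was lost when any library other than Evx1as KO replicate 2 and EVX1 KO replicate 1 was left out (adjusted p up to 0.149). EVX1 KO and WT differed by 0.27 ± 0.19 (adjusted p = 0.447).

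Tax1bp1, an autophagy receptor and ubiquitin-binding adaptor, lies 395 kb from Evx1 and had, in every group, the smallest SD relative to its mean of the 7 members. It stood at 16.3 and 16.2 FPKM in WT, at 20.1, 19.6 and 20.0 FPKM in Evx1as KO, and at 21.4, 20.9 and 21.7 FPKM in the libraries labelled EVX1 KO. The 3 groups did not overlap, and both knockouts were above WT. It was higher in Evx1as KO than in WT by 0.27 ± 0.08 (limma, adjusted p = 0.0384), a 1.22-fold difference of mean FPKM, and this call was lost when any library other than replicates 1 and 3 labelled EVX1 KO was left out (adjusted p up to 0.130). The larger difference of 0.37 ± 0.08 in EVX1 KO against WT was not called (adjusted p = 0.0637, unadjusted p = 0.00136). The knockouts differed by 0.10 ± 0.07 (adjusted p = 0.367).

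Jazf1, a zinc finger protein found with the NuA4/TIP60 acetyltransferase complex, lies 450 kb from Evx1 and stayed under 1 FPKM in all 8 libraries. Its values were 0.378 and 0.557 FPKM in WT, 0.656, 0.672 and 0.822 FPKM in Evx1as KO, and 0.559, 0.573 and 0.587 FPKM in the libraries labelled EVX1 KO. The Evx1as KO values were above all others, but the gene did not pass the filter and was not tested in the main fit. With no filter, the adjusted p was 0.173 in Evx1as KO against WT, 0.647 in EVX1 KO against WT and 0.419 between the knockouts.

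Skap2, a Src kinase-associated adaptor protein, lies 301 kb from Evx1 beyond the Hoxa cluster. It stood at 9.06 and 6.65 FPKM in WT, at 8.86, 8.65 and 11.4 FPKM in Evx1as KO, and at 9.57, 9.44 and 7.83 FPKM in the libraries labelled EVX1 KO, with all groups overlapping. The log2 fold change was 0.27 ± 0.16 in Evx1as KO against WT (limma, adjusted p = 0.257), 0.18 ± 0.16 in EVX1 KO against WT (adjusted p = 0.566) and −0.09 ± 0.15 between the knockouts (adjusted p = 0.687).

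Creb5, a bZIP transcription factor of the CREB family, is the most distant member at 1255 kb. It stood at 0.674 and 1.50 FPKM in WT, at 1.17, 1.16 and 0.986 FPKM in Evx1as KO, and at 0.333, 0.925 and 0.645 FPKM in the libraries labelled EVX1 KO. These are 14 and 37 fragments, then 21, 22 and 20, then 7, 19 and 14. The WT libraries lay on both sides of Evx1as KO, and every value labelled EVX1 KO was below every Evx1as KO value. No comparison was called: 0.04 ± 0.23 in Evx1as KO against WT (limma, adjusted p = 0.914), −0.34 ± 0.23 in EVX1 KO against WT (adjusted p = 0.421) and −0.38 ± 0.20 between the knockouts (adjusted p = 0.208).

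By mean FPKM (± SD), the order in WT was Evx1 (26.6 ± 6.50), Tax1bp1 (16.3 ± 0.0706), Hibadh (14.4 ± 2.56), Skap2 (7.85 ± 1.70), Evx1as (6.05 ± 0.986), Creb5 (1.09 ± 0.585) and Jazf1 (0.468 ± 0.127). The higher Hibadh value of 16.2 lay just under both Tax1bp1 values, a gap smaller than the SD of Hibadh, and the lower Skap2 value lay below the higher Evx1as value, so neither pair was separated. In Evx1as KO the order became Hibadh (26.1 ± 4.21), Tax1bp1 (19.9 ± 0.269), Skap2 (9.63 ± 1.52), Evx1 (2.28 ± 1.66), Creb5 (1.11 ± 0.103), Jazf1 (0.717 ± 0.0916) and Evx1as (0.0690 ± 0.0302). Evx1 there overlapped Creb5 and Jazf1, because of replicate 3. In the libraries labelled EVX1 KO the order was Evx1 (26.3 ± 5.45), Tax1bp1 (21.3 ± 0.384), Hibadh (17.6 ± 3.54), Skap2 (8.95 ± 0.967), Evx1as (7.07 ± 1.92), Creb5 (0.634 ± 0.296) and Jazf1 (0.573 ± 0.0140). Evx1 overlapped Tax1bp1 there, Tax1bp1 overlapped Hibadh, Skap2 overlapped Evx1as, and Creb5 overlapped Jazf1.

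Within 1000 kb of Evx1, 46 other genes of the table were examined, of which 13 were at 0 throughout, 24 stayed below the filter and 9 were tested. In Evx1as KO against WT, 2 of these 9 were higher (Hibadh and Tax1bp1) and 2 lower (Evx1as and the lncRNA Hotairm1, listed as Gm15051). That is 4 of 9 called, against 24.5% of all genes, though the call of Evx1as, the target of the knockout, follows from the design. The median log2 fold change of the 9 was 0.06, against 0.02 over all genes tested. The number called was 2 without WT replicate 1, 1 without WT replicate 2 and 1 without replicate 3 of Evx1as KO. Limma called 0 of the 9 in EVX1 KO against WT, where 1.24% of all genes were called. An unadjusted p under 0.05 was reached by 2 of the 9, and the share of all genes at that threshold was not counted. The median was 0.17 against 0.02 for all genes. Between the knockouts, 1 was higher in EVX1 KO (Evx1as) and 1 lower (Hibadh), with a median of 0.10 against −0.00. These 2 of 9, which include the target Evx1as, are near the 22.0% called over all genes. The nearest genes listed above 0 on either side, apart from Evx1as, were Hoxa13 at 52.6 kb and 1700094M24Rik at 174 kb, and neither was tested. Hoxa13, the Hox gene next to Evx1, was read as 3 and 3 fragments in WT, was listed at 0 in the 3 Evx1as KO libraries, and was read as 1, 2 and 1 fragments in those labelled EVX1 KO, too few for a comparison. 1700094M24Rik was listed at 0 in 7 libraries and at 0.272 FPKM in EVX1 KO replicate 2.

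Of 13 genes examined in the Hoxa cluster, which patterns the embryo along its main axis, 12 were in the table and 1 passed the filter. That gene, the lncRNA Hotairm1, lies 151 kb from Evx1, and its reads may be shared with a gene it overlaps. It stood at 3.89 and 2.73 FPKM in WT, at 0.565, 0.799 and 0.501 FPKM in Evx1as KO, and at 1.91, 0.247 and 0.468 FPKM in the libraries labelled EVX1 KO. Both knockouts lay below WT, with −1.40 ± 0.33 in Evx1as KO (adjusted p = 0.0163, lost without either WT library or replicate 3 of Evx1as KO, with p up to 0.113, and at 0.0504 with no filter) and −1.29 ± 0.33 in EVX1 KO (adjusted p = 0.0851, not called, though called when replicate 1 labelled EVX1 KO was left out). Evx2, the other even-skipped gene of the mouse, which lies in the Hoxd cluster, was listed at 0 in all 8 libraries.

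**Figure D4:**
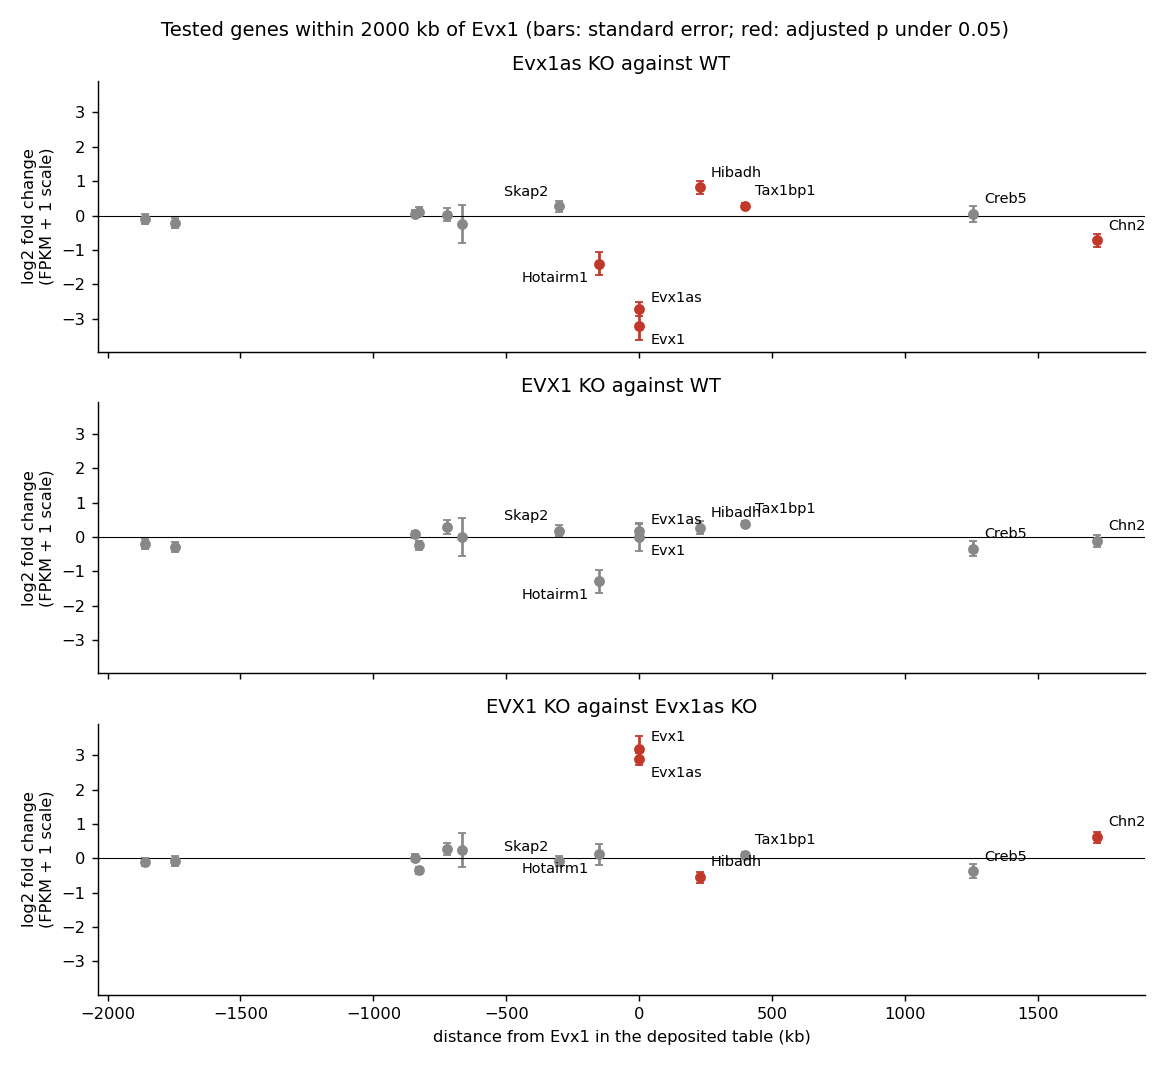
Log2 fold change on the FPKM + 1 scale (points, with standard errors as bars) of the tested genes examined within 2000 kb of Evx1, by distance from Evx1 in the deposited table in kb, in each comparison. Red points had an adjusted p under 0.05. Evx1 and Evx1as lie at −3.20 and −2.72 in Evx1as KO against WT, while Skap2 and Creb5 lie at 0.27 and 0.04.

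Of 12 genes listed for the outer flanks of the region, 8 were tested. In Evx1as KO against WT, Wipf3, a WASP-interacting protein, was higher by 0.65 (limma, adjusted p = 0.0362) and Chn2, a Rac GTPase-activating protein, was lower at −0.72 (adjusted p = 0.0205). These 2 calls among 8 are near the share of 24.5% over all genes, and the median of the 8 was 0.08 against 0.02. The Wipf3 call was lost without replicate 1 of WT, replicate 1 or 3 of Evx1as KO or replicate 2 labelled EVX1 KO, and the Chn2 call without WT replicate 1 or 2. With no filter neither was called (limma, adjusted p = 0.0874 and 0.0572). The Wipf3 call was also lost with the replicate number added to the fit (limma, adjusted p = 0.0856). Limma called 0 of 8 in EVX1 KO against WT, where 1.24% of all genes were called. An unadjusted p under 0.05 was reached by 2 of the 8, and the share of all genes at that threshold was not counted. Between the knockouts Chn2 was higher in EVX1 KO at 0.61 (adjusted p = 0.0280, lost without replicate 1 of either knockout or replicate 2 labelled EVX1 KO, and at 0.0726 with no filter) and Scrn1 lower at −0.99 (adjusted p = 0.00594), where 22.0% of all genes were called. The level of chromosome 6 was read only from tested genes that averaged 5 FPKM or more across libraries. Over 362 such genes on chromosome 6, the median deviation from each gene's mean lay between −0.02 and 0.02 log2 units in every library. Over 7687 such genes on all other autosomes it lay between −0.01 and 0.01. Over the 34 such genes within 5 Mb of Evx1 it was −0.07 and −0.09 in WT. It was 0.05, 0.05 and 0.06 in Evx1as KO, and 0.02, 0.03 and −0.01 in the libraries labelled EVX1 KO. WT thus lay below both knockouts there, a difference that was not tested. Evx1, Hibadh, Tax1bp1 and Skap2 are among these 34 genes, so the difference is not wholly separate from the results above.

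Evx1 sits among streak regulators that include its inputs and partners, such as Wnt and BMP ligands and T-box factors. Of 22 listed genes, 20 were tested, and Wnt3a and Cdx4 stayed below the filter. In Evx1as KO against WT, 15 of 20 were lower and 0 higher, against 11.4% and 13.0% of all genes. The median log2 fold change of the 20 was −1.66 against 0.02 over all genes. An unadjusted p under 0.05 was reached by 16 of them (share of all genes not counted). The number lower was 10 when either WT library was left out and 12 to 15 without any other library. Those that fell furthest were Msgn1 (−4.05 ± 0.29), a presomitic mesoderm factor, Mesp1 (−3.97 ± 0.56), a factor of early mesoderm, Mixl1 (−3.84 ± 0.60), a streak homeobox factor, and Lhx1 (−3.50 ± 0.50), a LIM homeobox factor, beside −3.20 for Evx1. Lhx1 stood at 22.7 and 20.7 FPKM in WT, at 0.175, 3.97 and 0.362 FPKM in Evx1as KO, and at 40.8, 47.3 and 43.6 FPKM in the libraries labelled EVX1 KO, with no overlap between groups. Like Evx1 and most of the 20 regulators, it was highest within Evx1as KO in replicate 2. Its lowest value there was in replicate 1, while that of Evx1 was in replicate 3. The streak and mesoderm markers given above are all in this list, so their low sum in the same libraries is not a separate observation. The part of these genes in the lower Evx1 was not tested.

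Limma called 1 of the 20 streak regulators lower and 0 higher in EVX1 KO against WT. Over all genes, 0.554% were lower and 0.690% higher. The median of the 20 was −0.09 against 0.02, and 4 had an unadjusted p under 0.05 (share of all genes not counted). The gene called lower was Msgn1. It stood at 18.7 and 16.1 FPKM in WT, at 0, 0.367 and 0 FPKM in Evx1as KO, and at 2.32, 3.07 and 0.969 FPKM in the libraries labelled EVX1 KO. Its log2 fold change was −2.62 ± 0.29 (adjusted p = 0.0124), lost when either WT library was left out (adjusted p up to 0.145), at a pseudocount of 0.1 (0.0682) and with no filter (0.0515). In EVX1 KO against Evx1as KO, 16 of 20 were higher and 1 lower, against 10.7% and 11.3% of all genes, with a median of 1.59 against −0.00. The largest differences were Lhx1 (4.49), Mixl1 (3.95), Mesp1 (3.64) and Gsc (3.05), a homeobox factor of the anterior streak, beside 3.19 for Evx1. The lower gene was Fgf4, a growth factor of pluripotent cells, at −0.97, named after its value was seen.

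**Figure D5:**
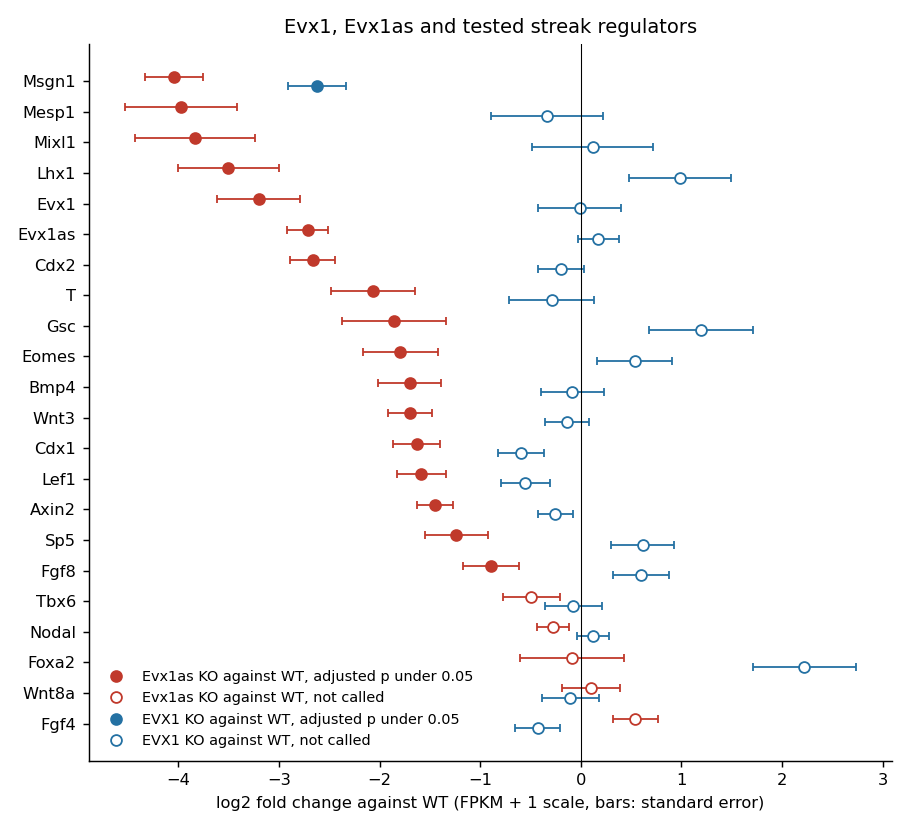
Log2 fold change against WT on the FPKM + 1 scale (points, with standard errors as bars) of Evx1, Evx1as and the 20 tested streak regulators, in Evx1as KO (red) and EVX1 KO (blue), with filled points for an adjusted p under 0.05. In Evx1as KO 15 of the 20 regulators are called lower, and in EVX1 KO only Msgn1 is.

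Genes for Mediator, cohesin, CTCF, Polycomb and MLL-type complexes, which act at enhancers and at lncRNA loci, were also counted. In Evx1as KO against WT, 4 of 15 tested were called, near the share of 24.5% over all genes. All 4 were higher, where 13.0% of all genes were called higher: Ezh2 (0.41), Kdm6a (0.38), Wdr5 (0.36) and Smc3 (0.35). The median over the list was 0.18 against 0.02 for all genes, and 5 had an unadjusted p under 0.05 (share of all genes not counted). Without WT replicate 1 none of these 4 calls held, and without WT replicate 2 or replicate 3 of Evx1as KO 1 held, that of Wdr5. The Kdm6a call was also lost without replicate 1 or 2 of Evx1as KO or replicate 2 or 3 labelled EVX1 KO, and under 6 other alternatives, among them no filter, a filter of 5 FPKM and median-ratio scaling (adjusted p = 0.0526 to 0.0850). The Smc3 call was also lost with the replicate number added to the fit (limma, adjusted p = 0.0555). Limma called 0 of 15 in EVX1 KO against WT, where 1.24% of all genes were called. The median was 0.17 against 0.02, and 4 had an unadjusted p under 0.05 (share of all genes not counted). Between the knockouts Med1 was higher in EVX1 KO at 0.33, a call lost without replicate 1 or 3 of Evx1as KO or any 1 library labelled EVX1 KO. This Med1 call was also lost with the replicate number added to the fit. Wdr5 was lower at −0.38. These 2 calls among 15 lie below the share of 22.0% over all genes, and the median was 0.04 against −0.00.

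The genes most like Evx1 across the 8 libraries were found by the root-mean-square (RMS) difference between centred log2(FPKM + 1) profiles over 12067 named genes. They were Arl4d (0.38), an ARF-like GTPase, Grrp1 (0.41), Cdx2 (0.48), a caudal homeobox factor, Cdh2 (0.50), N-cadherin, and Six2 (0.51), a homeobox factor, where the profile of Evx1 itself had an RMS spread of 1.61. Arl4d stood at 17.5 and 15.2 FPKM in WT, at 1.00, 2.01 and 0.664 FPKM in Evx1as KO and at 11.9, 11.5 and 14.9 FPKM in the libraries labelled EVX1 KO. Like Evx1, it was highest in replicate 2 and lowest in replicate 3 within Evx1as KO, an order that its choice by likeness to Evx1 favours.

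For Evx1as the nearest profiles were Grrp1 (0.26), Gata6 (0.29), an endoderm GATA factor, Cdx2 (0.30), Fgf3 (0.34), a fibroblast growth factor, and Igfbp4 (0.36), an IGF-binding protein, with a spread of 1.38 for Evx1as itself. Gata6 stood at 6.32 and 5.29 FPKM in WT, at 0.0498, 0.847 and 0.132 FPKM in Evx1as KO and at 6.37, 10.4 and 6.91 FPKM in the libraries labelled EVX1 KO. Evx1 and Evx1as differed by 0.53 from each other, which placed Evx1as at rank 7 of 13187 genes by likeness to Evx1 and Evx1 at rank 29 by likeness to Evx1as. These are descriptions of 8 libraries that share the Evx1as KO difference, and no p is given.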

How the data were processed

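RNA-seq of 8 libraries of CJ9 cells was used. The authors deposited 1 table of FPKM (45772 lines, 42245 with values), and its values were used as deposited. Libraries were made with a TruSeq Stranded mRNA kit, per the labels' protocols. CASAVA, TopHat2 2.0.11 and the builds mm10 and mm9 are named without a role, per the submitters' processing notes, and the sources used here do not name the program that computed FPKM. Only 11.1% of 18425 genes compared overlapped their GRCm38 positions, so distances are from the table's own positions and nothing was converted. Groups came from the sample labels.

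Genes that reached 1 FPKM in 2 or more libraries were fitted with limma 3.58.1 (R 4.3.3) on log2(FPKM + 1), with an intensity trend, all 8 libraries in 1 fit and Benjamini-Hochberg adjustment. The fit was tested on simulated data. Symbols on several lines (2660) held identical values and were used once. For Evx1, Evx1as, Creb5 and Hoxa13, whole fragments were read from FPKM steps, and intervals from them cover counting error only. The steps of the other members were not resolved, so their depth is unknown. Relative depth came from steps of genes under 0.3 FPKM, of which 17.2% to 24.2% lay at the step.

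The members, gene lists and tests were chosen with earlier results of these data known. All members are named. Genes within 1000 kb were named where called or nearest, up to 4 called genes per list by size of change, and 5 genes by likeness to each of Evx1 and Evx1as, passing over predicted genes. A listed gene is not reported here and was left out of the list counts. Alternatives covered the pseudocount, filter, scaling, samples fitted, trend, library weights, a replicate block and each library left out. Python 3.11.15, pandas 2.3.3, numpy 2.4.6, scipy 1.17.1 and matplotlib 3.10.9 were used.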

Additional observations from a re-analysis of the deposited data

How the results depend on the processing

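Of 303 alternative values for the members, 274 kept their direction and their side of the threshold. Leaving out each library in turn kept the calls of Evx1 and Evx1as in Evx1as KO against WT (−3.56 to −2.73 and −2.86 to −2.57) and in EVX1 KO against Evx1as KO (2.72 to 3.55 and 2.73 to 3.09). Over left-out libraries the values ranged from 0.65 to 0.99 for Hibadh, 0.27 to 0.28 for Tax1bp1 and −0.25 to 0.33 for Creb5 in Evx1as KO against WT, −0.26 to 0.23 for Evx1 and −0.021 to 0.37 for Skap2 in EVX1 KO against WT, −0.70 to −0.45 for Hibadh and −0.16 to 0.023 for Skap2 in EVX1 KO against Evx1as KO, and −0.45 to 0.13 for the log2 ratio of Evx1 to Evx1as. Values that stayed uncalled in one direction also moved, as for Skap2 (0.071 to 0.47) and Jazf1 (0.14 to 0.32) in Evx1as KO against WT, for Evx1as (0.016 to 0.37), Hibadh (0.095 to 0.44), Jazf1 (0.015 to 0.19) and Creb5 (−0.63 to −0.051) in EVX1 KO against WT, and Creb5 (−0.51 to −0.24) between the knockouts. In limma, Tax1bp1 in Evx1as KO against WT was not called with median-ratio scaling (0.25, adjusted p = 0.0522), with only these groups fitted (0.27, adjusted p = 0.0630), with no trend (0.27, adjusted p = 0.0543) or with the replicate block (0.27, adjusted p = 0.0950). It was called by limma in EVX1 KO against WT with a filter of 5 FPKM (0.37, adjusted p = 0.0479) and with array weights (0.35, adjusted p = 0.0255). Limma did not call Hibadh in EVX1 KO against Evx1as KO with no filter (−0.55, adjusted p = 0.108), with only these groups fitted (−0.55, adjusted p = 0.0508) or with no trend (−0.55, adjusted p = 0.0602). The cause of each was not tested. Genes called in EVX1 KO against WT numbered 164 in the main fit, 28 with no filter, 27 with only these groups, 78 with no trend, 1148 with array weights, 28 with the replicate block and 4 (without EVX1 KO replicate 2) to 634 (without its replicate 3) with 1 library left out. Counts without 1 library were 1421 (without WT replicate 1) to 3414 for Evx1as KO against WT (3230 with all; 1509 without WT replicate 2, 2108 and 1804 without Evx1as KO replicates 1 and 3) and 1409 (without Evx1as KO replicate 3) to 2666 for EVX1 KO against Evx1as KO (2903 with all, 1827 without Evx1as KO replicate 1, 1440 without EVX1 KO replicate 2, 5552 with array weights). Same-numbered libraries correlated at −0.10 to 0.08 in their deviations. This cannot settle whether the numbers pair them, since deviations within groups of 2 or 3 libraries are not independent. With the replicate block the log2 fold change of Evx1 in EVX1 KO against WT was 0.15 in place of −0.01. In Evx1as KO against WT the standard error became 0.12 in place of 0.19 for Hibadh and 0.10 in place of 0.08 for Tax1bp1. Jazf1 was fitted only with no filter. Precision is limited by 2 WT libraries and, for Evx1as in Evx1as KO, by 4 fragments in all.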
